A study of Mus musculus with 281 samples.

Results

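Transcripts of 9 adhesion genes were followed in single mouse bone marrow cells, from myeloid progenitors to a neutrophil precursor and a monocyte precursor. The genes were the integrin subunits Itgam, Itgb2, Itgal, Itga4, Itgb1 and Itgb7, the selectin ligands Selplg and Cd44, and the sialomucin Cd34. They were taken by symbol, 9 of 43280 in the deposited table, and all 9 were present and reached 1 TPM in some of the cells. TPM is a transcript abundance that is divided by transcript length and scaled to the total of the cell.

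Integrins are heterodimers of an alpha and a beta chain that bind matrix proteins and cell surface ligands once they are switched to an active state. Itgam (CD11b) and Itgal (CD11a) each pair with Itgb2 (CD18) to form Mac-1 and LFA-1, receptors with which neutrophils and monocytes hold on to vessel walls, and Itga4 pairs with Itgb1 to form VLA-4, which tethers progenitors to marrow stroma, or with Itgb7 to form a receptor for the gut vessel ligand MAdCAM-1. Selplg (PSGL-1) and Cd44 carry sugars that selectins bind during rolling, and Cd34 is a mucin-like protein of blood progenitors and vessel lining by which progenitors are commonly sorted.

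The study examined how granulocyte-monocyte progenitors (GMPs) differ among themselves, in C57BL/6 mice. Each deposited sample is 1 cell, read by SMART-seq2, which covers whole transcripts. Cells of 3 labels, CMP (47 cells), Ly6C-GMP (45) and Ly6C+GMP (95 and 10 in separate groups of sample titles), were sorted for c-Kit and CD34 and against lineage markers and Sca-1, with CD16/32 low in CMP and high in both GMP gates, and with Ly6C absent from the first GMP gate and present on the second. Of 22 cells labelled proneu, 21 carried the Ly6C+GMP gate and 1 carried no gate, and the labels do not state how they were told apart from other cells of that gate. The preNeu cells (31) had no lineage markers, CD115 or SiglecF but had CXCR4, c-Kit, CD11b and Gr1. The tpMo cells (31) had no lineage markers or c-Kit but had CXCR4, Ly6C and CD115. CD34 protein was therefore part of the CMP, GMP and proneu gates and CD11b protein part of the preNeu gate, so for Cd34 and Itgam the sort and the label cannot be told apart.

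Sample titles fell into 4 numbered stretches, called title runs H, A, B and C here, whose meaning the labels do not give. In run H were 16 CMP and 15 Ly6C-GMP cells, in run A 95 Ly6C+GMP cells, and in run B 31 CMP cells, 30 Ly6C-GMP cells and the proneu cell without a gate. Run C held 10 Ly6C+GMP cells, the other 21 proneu cells and all preNeu and tpMo cells. No run held both GMP labels, so their difference and the runs cannot be told apart. No animal or culture was named, so each label counts as 1 sample, and differences carry no test. A gene was counted as detected at 1 TPM or more, and the 95% intervals of such shares are exact (Clopper-Pearson) and cover counting error only. Differences are between labels' means of log2(TPM + 1), a scale that understates differences of low genes, and were counted from 1 log2 unit up. Read depth is unknown from TPM values. The median number of genes detected was 2373 in preNeu, 3082 in tpMo and 3489 to 4829 in the other labels, and the 20 most abundant genes took 47.1% of TPM in preNeu (the median over cells) and 14.2% to 22.4% elsewhere. The part that these gaps play in the differences was not tested.

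Known markers fitted the labels in part. The summed level of 10 neutrophil markers had a median of 297499 TPM in preNeu (range 219710 to 398299) and 1895 TPM in tpMo (range 205 to 66888). By detection they did not separate preNeu from proneu, Ly6C+GMP or tpMo: all 10 were detected in at least 50% of preNeu, proneu and Ly6C+GMP cells, and 9 in tpMo. Fewer were so in CMP (4) and Ly6C-GMP (5). All 8 monocyte markers were detected in at least 50% of tpMo cells, with a median sum of 59871 TPM. Only 1 of the 8 was so in preNeu, although the preNeu sum reached a median of 40855 TPM. The 6 T and NK cell markers were at 0 in all Ly6C+GMP, proneu, preNeu and tpMo cells. Their sum reached 303.58 TPM in the highest CMP cell and 202.49 TPM in the highest Ly6C-GMP cell. Single CMP cells reached larger sums of erythroid markers (10096 TPM, median 474) and of megakaryocyte and platelet markers (3417 TPM, median 1.18). Single Ly6C-GMP cells did so for basophil and mast cell markers (6938 TPM, median 78.8) and eosinophil markers (3101 TPM, median 0).

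By GENCODE M21 on the build GRCm38, Itgal and Itgam lie on chromosome 7, at 127296260 to 127335138 and 128062640 to 128118491, both on the plus strand. Itgb2 lies on chromosome 10 (77530252 to 77565708, plus), Itga4 on chromosome 2 (79255426 to 79333123, plus), Itgb1 on chromosome 8 (128685654 to 128733200, plus) and Itgb7 on chromosome 15 (102215995 to 102231944, minus). Selplg lies on chromosome 5 (113818536 to 113832644, minus), Cd44 on chromosome 2 (102811141 to 102901665, minus) and Cd34 on chromosome 1 (194938819 to 194961279, plus).

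RefSeq promoter windows on GRCm38.p6, 250 bases before to 50 after the gene start, were matched for 6 of the 9 genes (Itgam, Itga4, Itgb1, Itgb7, Cd44 and Cd34). Those of Itgam, Itgb7 and Cd34 are printed because of where these transcripts were highest. Itgam was highest in preNeu and proneu, Itgb7 in tpMo, and Cd34 in CMP, Ly6C-GMP and the Ly6C+GMP cells of run A. The windows are chr7:128062390-128062689 (plus strand), chr15:102231886-102232185 (minus strand) and chr1:194938571-194938870 (plus strand), written from 5′ to 3′ on the strand of the gene. Capitals mark GAGGAA or its reverse complement TTCCTC, letters found in many sites of PU.1, an ETS factor of the myeloid lineage.
Itgam: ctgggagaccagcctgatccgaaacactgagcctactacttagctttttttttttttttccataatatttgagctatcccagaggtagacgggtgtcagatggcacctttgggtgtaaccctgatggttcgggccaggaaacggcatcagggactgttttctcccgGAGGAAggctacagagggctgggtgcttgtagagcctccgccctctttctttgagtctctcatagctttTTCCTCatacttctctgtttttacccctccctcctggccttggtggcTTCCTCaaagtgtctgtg
Itgb7: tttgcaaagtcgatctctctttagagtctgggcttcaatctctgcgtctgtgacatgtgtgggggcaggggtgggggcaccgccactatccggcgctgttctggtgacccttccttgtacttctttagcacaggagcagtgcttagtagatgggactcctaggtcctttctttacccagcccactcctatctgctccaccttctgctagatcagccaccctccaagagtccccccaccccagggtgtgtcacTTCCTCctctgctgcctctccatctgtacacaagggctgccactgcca
Cd34: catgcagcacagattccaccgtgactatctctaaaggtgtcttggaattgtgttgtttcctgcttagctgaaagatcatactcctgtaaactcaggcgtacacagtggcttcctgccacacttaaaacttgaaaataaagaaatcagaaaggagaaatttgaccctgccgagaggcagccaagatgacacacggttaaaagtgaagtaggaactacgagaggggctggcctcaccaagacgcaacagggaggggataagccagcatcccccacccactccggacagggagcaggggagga
The Itgam window held 3 such matches, starting 84 and 15 bases before the gene start and 32 bases after it. The Itgb7 window held 1, starting 2 bases after the gene start, and the Cd34 window held none. Of the windows not printed, Itgb1 held 1 match and Cd44 held 2, and the Itga4 window held none. Over all 32851 promoter windows of this length, 28.3% held at least 1 match, so a match is a description of these letters and no more. Neither AGATAA, held by 11.2% of all windows and typical of sites of erythroid and megakaryocyte regulators, nor TGTGGT, a RUNX motif held by 16.8%, occurred on either strand of the 3 printed windows.

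Itgam was the transcript most tied to the neutrophil side. Its lowest, median and highest levels were 0.45, 133 and 668 TPM in preNeu, against 0, 14.1 and 196.5 TPM in proneu. In CMP, Ly6C-GMP, Ly6C+GMP and tpMo the median was 0, with highest cells of 127, 97.4, 101.1 and 359.9 TPM. All 31 preNeu cells thus had some Itgam, proneu cells split into cells with and without it, and most cells of the other 4 labels had none. The mean was 174 ± 185 TPM in preNeu (SD over cells, n = 31), 40.8 ± 56.9 in proneu (n = 22) and 16.9 ± 68.01 in tpMo (n = 31). The tpMo mean was 5.44 TPM without its highest cell. Means of 3.12 ± 18.5 in CMP (n = 47; 0.428 without the highest cell), 4.37 ± 17.8 in Ly6C-GMP (n = 45; 2.26 without it) and, over both runs, 5.40 ± 19.6 in Ly6C+GMP completed the order.

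Detection followed the same order at the top. Itgam was detected in 28 of 31 preNeu cells (90.3%, interval 74.3% to 97.96%) and in 12 of 22 proneu cells (54.5%, 32.2% to 75.6%). It was detected in 5 of 31 tpMo cells (16.1%), 12 Ly6C+GMP cells (11.4%), 7 of 45 Ly6C-GMP cells (15.6%) and 4 of 47 CMP cells (8.51%). The 12 proneu cells with Itgam all had at least 10 TPM, and 3 of them had at least 100 TPM. Proneu exceeded Ly6C+GMP by 2.63 log2 units, and by 2.92 within title run C. In that run Itgam was detected in 11 of 21 proneu cells and in 0 of 10 Ly6C+GMP cells. The count of 0 allows a share of up to 30% by the limit of 3 cells (the exact interval ends at 30.8%). Of these 10 cells, 3 were above 0 TPM, at 0.59 TPM or less. The single proneu cell of run B had 175.73 TPM. PreNeu exceeded proneu by a further 2.69 log2 units (2.89 within run C), and tpMo differed from preNeu by -5.10. No gap between neighbouring labels in the log2 order was larger than the SD over cells of log2(TPM + 1), which was 2.98 in proneu. Itgam shares 3450 of 5024 exon bases with Gm49368, a gene model on the same strand that has no row in the table. The annotation used was not given, so whether any reads were assigned to that model is unknown.

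**Figure D1:**
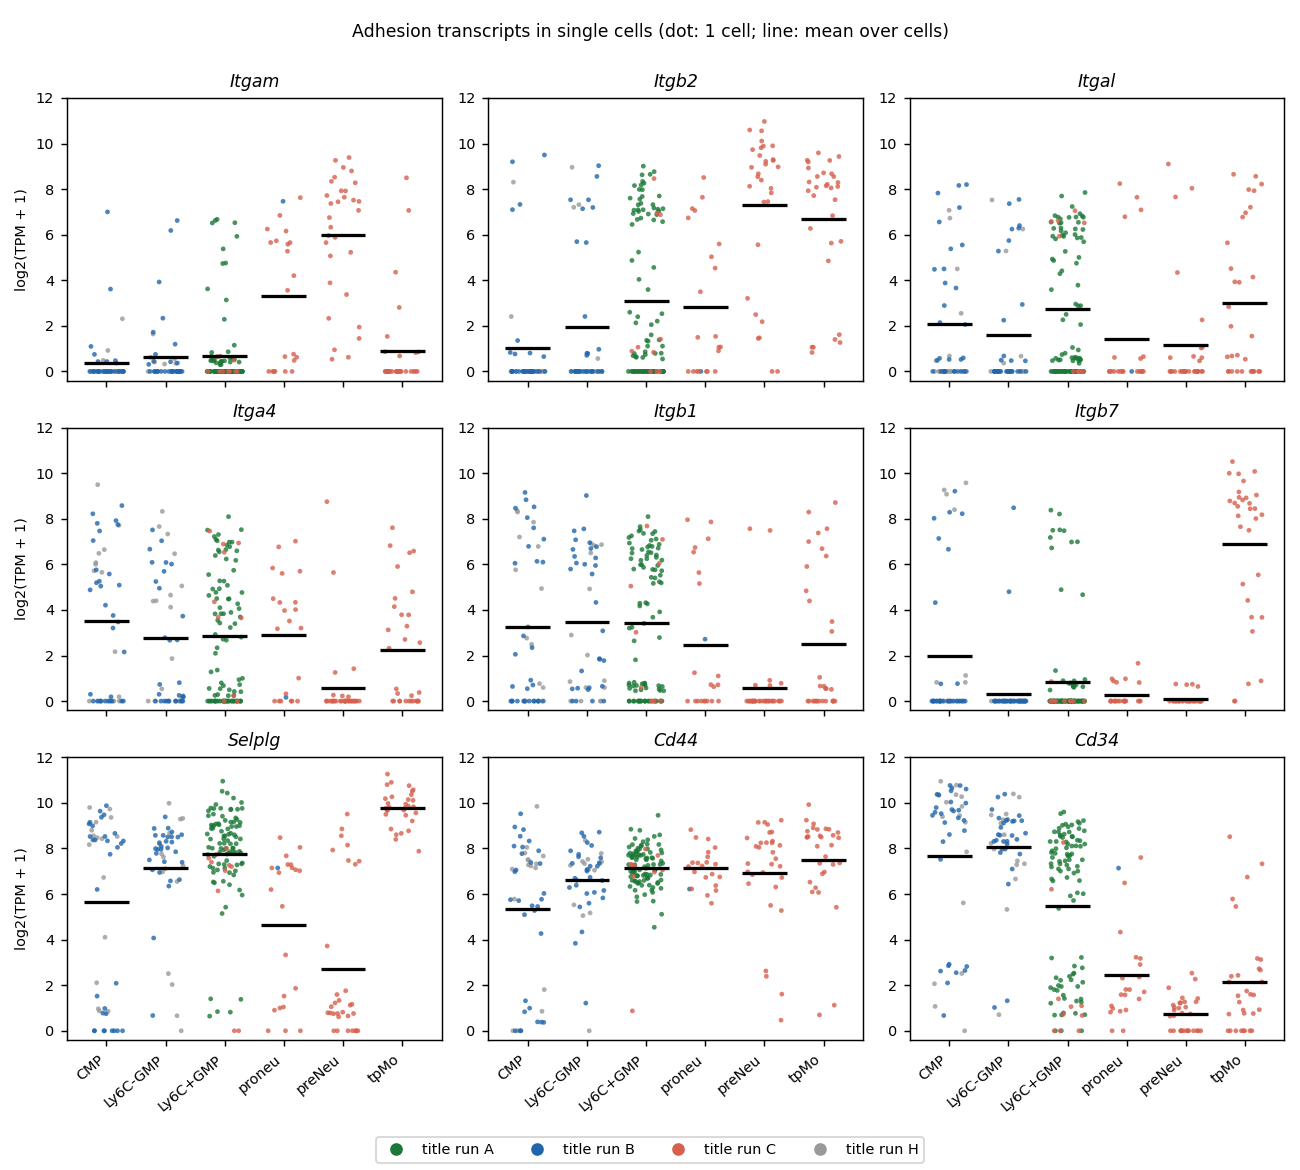
Levels of the 9 transcripts in single cells, as log2(TPM + 1) on the vertical axis, by label on the horizontal axis; each dot is 1 cell, coloured by title run, and each line is the mean over cells. Itgam dots lie high mainly in proneu and preNeu, Itgb7 and Selplg are highest in tpMo, Cd44 is high under every label, and Cd34 steps down from CMP and Ly6C-GMP to preNeu.

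Itgb2, the beta chain that Itgam and Itgal share, was high in both precursors. Its lowest, median and highest levels were 0, 407 and 2003 TPM in preNeu and 0.78, 269.8 and 770.01 TPM in tpMo. In proneu they were 0, 1.46 and 363.5 TPM, and in Ly6C+GMP 0, 1.16 and 513 TPM. The lowest levels were those of Ly6C-GMP (0, 0 and 520.32 TPM) and CMP (0, 0 and 722 TPM). Most preNeu and tpMo cells were high, while single cells under each of the other labels reached at least 363.5 TPM, so all 6 labels overlapped.

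Mean Itgb2 was 522 ± 512 TPM in preNeu (n = 31) and 268 ± 226 in tpMo (n = 31), and 41.03 to 70.4 TPM in the other 4 labels (the CMP mean of 41.03 ± 142 was 26.2 without its highest cell). Detection was 29 of 31 in preNeu, 30 of 31 in tpMo, 13 of 22 in proneu, 52.4% (55 cells) in Ly6C+GMP, 12 of 45 in Ly6C-GMP and 7 of 47 in CMP. The step from proneu to preNeu was 4.50 log2 units (4.37 within run C) and that from Ly6C+GMP to tpMo 3.59 (4.03 within run C). The second step was one of only 2 gaps between neighbouring labels in the log2 order, over the 9 genes, that exceeded the SD over cells in both labels (3.37 in Ly6C+GMP). Proneu minus Ly6C+GMP was -0.28, and 0.29 within run C, so the gain of Itgam in proneu cells had no counterpart of 1 log2 unit in its beta chain. Ly6C+GMP exceeded Ly6C-GMP by 1.14 log2 units, and by 0.69 with only the 10 run C cells of Ly6C+GMP.

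Itgal, the alpha chain of LFA-1, had a low and scattered signal under every label. Median levels ran from 0 in Ly6C-GMP, proneu and preNeu to 1.93 TPM in tpMo, and the highest cells from 185.8 TPM in Ly6C-GMP to 548 TPM in preNeu. The largest share of cells with Itgal was in tpMo (16 of 31, 51.6%, interval 33.1% to 69.8%) and the smallest in proneu (4 of 22, 18.2%, 5.19% to 40.3%). Shares in between were 47.6% (50 cells) in Ly6C+GMP, 18 of 47 in CMP, 12 of 45 in Ly6C-GMP and 7 of 31 in preNeu. In mean TPM, tpMo was highest at 66.99 ± 119, and the other labels lay between 21.9 and 33.9 TPM, with proneu at 21.2 and preNeu at 16.3 TPM when each lost its highest cell.

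On the log2 scale, Itgal was lower in proneu than in Ly6C+GMP (-1.31, and -1.77 within run C). Ly6C+GMP minus Ly6C-GMP was 1.14. For the first of these, the ratio of the mean levels in TPM was 1.03, so its direction rested on the share of cells with the transcript. TpMo exceeded preNeu by 1.86. All neighbouring labels in the log2 order of Itgal differed by less than the SD over cells.

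Detection of both Itgam and Itgb2 in 1 cell differed between preNeu and tpMo, as did detection of Itgam. Itgb2 itself was detected in 29 of 31 preNeu and 30 of 31 tpMo cells. CD11b, the Itgam protein, was part of the preNeu gate, so for this pair the sort and the label cannot be told apart. Itgam and Itgb2 were found together in 26 of 31 preNeu cells (83.9%, interval 66.3% to 94.5%), 6 of 22 proneu cells (27.3%, 10.7% to 50.2%) and 5 of 31 tpMo cells (16.1%, 5.45% to 33.7%). Among the earlier labels the pair was found in 8 Ly6C+GMP cells (7.62%), 2 of 45 Ly6C-GMP and 3 of 47 CMP cells. Of the 12 proneu cells with Itgam, 6 had no detected Itgb2, and of the 28 such preNeu cells, 2. The pair Itgal and Itgb2 was found in 16 of 31 tpMo cells (51.6%, 33.1% to 69.8%), which were all of the tpMo cells with Itgal, in 7 of 31 preNeu cells and in 25 Ly6C+GMP cells (23.8%). The shares were near the product of the single shares, for example 84.5% for Itgam with Itgb2 in preNeu and 32.2% in proneu, so in these labels the partners were found together about as often as their separate detection gives. CMP was further from it, at 6.38% against 1.27%, with 3 cells.

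**Figure D2:**
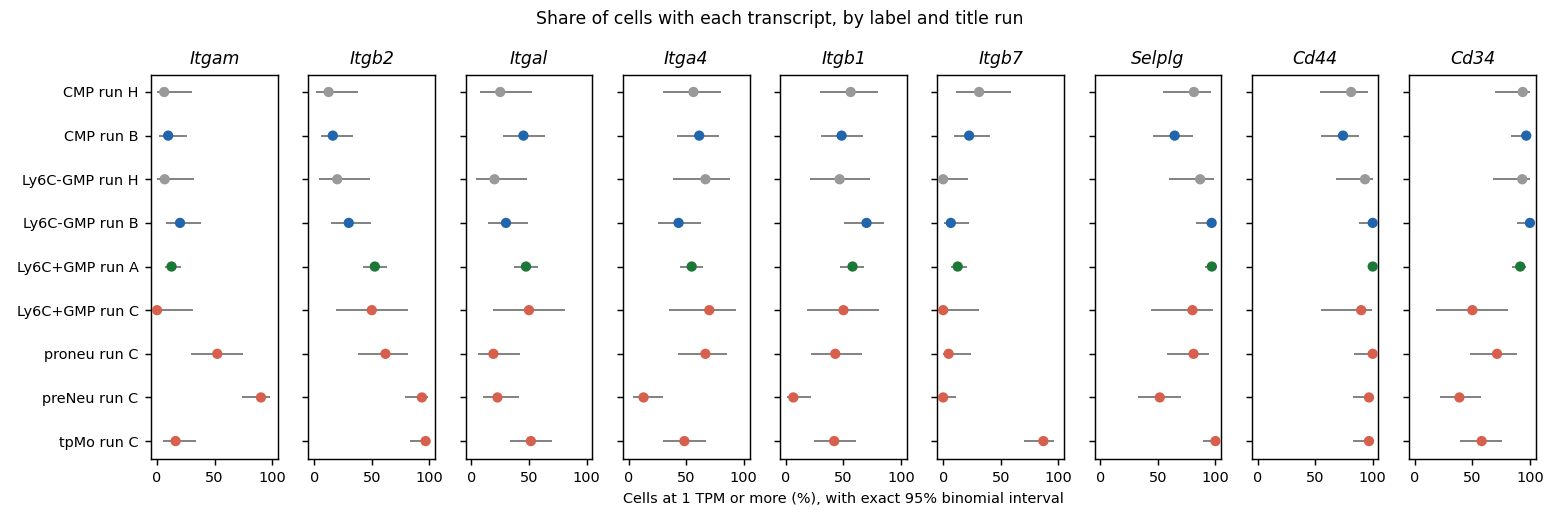
Share of cells at 1 TPM or more (horizontal axis, in percent) for each transcript, by label and title run (rows); points are shares and lines are exact 95% binomial intervals, and the single proneu cell of run B is not drawn. Itgam is at 0% among 10 Ly6C+GMP cells and near 52.4% among 21 proneu cells of run C, and Itgb7 is highest in tpMo, at 87.1%.

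Itga4, the alpha chain of VLA-4, was spread over the progenitors and scarce in preNeu. Its lowest, median and highest levels were 0, 12.5 and 721 TPM for CMP, 0, 2.64 and 319.53 TPM for Ly6C-GMP, 0, 5.58 and 272 TPM for Ly6C+GMP and 0, 9.32 and 128.5 TPM for proneu. They were 0, 0.45 and 194 TPM in tpMo and 0, 0 and 429.61 TPM in preNeu. The ranges overlapped, and the highest preNeu cell stood alone: mean Itga4 in preNeu was 15.6 ± 77.3 TPM with it and 1.75 without it.

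Between 48.4% and 63.6% of cells had Itga4 in 5 labels, with 14 of 22 in proneu and 15 of 31 in tpMo at the ends, against 4 of 31 in preNeu (12.9%, interval 3.63% to 29.8%). PreNeu differed from proneu by -2.31 log2 units (-2.44 within run C), and tpMo was 1.68 above preNeu. In CMP the mean was 70.9 ± 132 TPM (n = 47) and in Ly6C-GMP 36.5 ± 66.8 (n = 45), a difference of -0.74 that was -1.19 within run B and 0.15 within run H. Cerkl, on the opposite strand, overlaps 1124 of the 13978 exon bases of Itga4, and without strand information reads there cannot be told apart.

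Itgb1, which pairs with Itga4 and with many other alpha chains, had the same gap in preNeu. It was detected in 2 of 31 preNeu cells (6.45%, interval 0.791% to 21.4%) and in 41.9% to 62.2% of cells of each other label, which were 13 of 31 in tpMo, 10 of 22 in proneu, 24 of 47 in CMP, 28 of 45 in Ly6C-GMP and 60 (57.1%) in Ly6C+GMP. Median levels were 11.8 TPM in Ly6C+GMP, 6.45 in Ly6C-GMP, 3.15 in CMP, 0.645 in proneu, 0.47 in tpMo and 0 in preNeu. The highest cells ran from 188 TPM in preNeu to 569 TPM in CMP, so the labels overlapped. Mean Itgb1 was 82.8 ± 141 TPM in CMP and 11.9 ± 45.8 in preNeu (6.05 without its highest cell). The difference of preNeu from proneu was -1.88 log2 units and that of tpMo from preNeu 1.92. Itga4 and Itgb1 were detected together in 30.5% to 33.3% of cells of CMP and both GMP labels, in 4 of 22 proneu and 6 of 31 tpMo cells, and in 0 of 31 preNeu cells, which allows a share of up to 9.68% by the limit of 3 cells (the exact interval ends at 11.2%).

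Itgb7, the other partner of Itga4, marked tpMo and minorities of CMP and Ly6C+GMP cells. Its lowest, median and highest levels in tpMo were 0, 346 and 1456 TPM, and in CMP 0, 0 and 762 TPM. The median was 0 in each other label, with highest cells of 0.68 TPM in preNeu, 2.16 TPM in proneu, 357 TPM in Ly6C-GMP and, at 332 TPM, Ly6C+GMP. Most tpMo cells thus lay above nearly all other cells, and in CMP 10 of 47 cells reached 100 TPM or more, which lie in the range of tpMo.

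The transcript was detected in 27 of 31 tpMo cells (87.1%, interval 70.2% to 96.4%), 12 of 47 CMP cells (25.5%, 13.9% to 40.3%), 12 Ly6C+GMP cells (11.4%, all in run A), 2 of 45 Ly6C-GMP cells, 1 of 22 proneu cells and 0 of 31 preNeu cells (up to 9.68% by the limit of 3 cells, with the exact interval ending at 11.2%). Mean Itgb7 was 373 ± 373 TPM in tpMo, 84.5 ± 190 in CMP and 16.5 ± 56.3 in Ly6C+GMP. In Ly6C-GMP it was 8.52 ± 53.2 TPM, or 0.610 without its highest cell. TpMo exceeded Ly6C+GMP by 6.04 log2 units, and by 6.79 within run C. There Itgb7 was detected in none of the 10 Ly6C+GMP cells, of which 1 was at 0.81 TPM. TpMo exceeded preNeu by 6.79. The gap from tpMo to CMP, the next label in that order, was 4.91 log2 units and exceeded the SD over cells in both (at most 3.46). Ly6C-GMP differed from CMP by -1.67 log2 units, which was -1.28 within run B and -2.44 within run H, where all 15 Ly6C-GMP cells were listed at 0. Itga4 and Itgb7 were found in the same cell in 12 of 31 tpMo cells (38.7%, 21.9% to 57.8%), 6 of 47 CMP cells, 7 Ly6C+GMP cells (6.67%), 1 Ly6C-GMP cell and 1 proneu cell.

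Since TPM is divided by transcript length, the levels of subunits can be set side by side. Of the summed mean TPM of the 3 beta chains, Itgb2 made up 97.8% in preNeu (sum 534 TPM), with 2.23% for Itgb1. In tpMo (sum 689.9 TPM) Itgb7 made up 54.04%, Itgb2 38.8% and Itgb1 7.12%. CMP (208 TPM) had 39.7% Itgb1, 19.7% Itgb2 and 40.6% Itgb7. The CMP mixture was not the same in its 2 title runs, at 44.5% Itgb1, 26.8% Itgb2 and 28.7% Itgb7 in run B and 32.2%, 8.43% and 59.4% in run H. In Ly6C-GMP, Ly6C+GMP and proneu, Itgb1 gave 34.8% to 46.02% and Itgb2 46.8% to 53.7%, and Itgb7 gave 7.30%, 12.4% and 0.328%, respectively. The Ly6C-GMP shares also differed by run, with Itgb1 at 48.7% and Itgb2 at 41.7% in run B. In run H they were at 37.4% and 62.6%. Counted by cell, Itgb2 was the highest of the 3 in 28 of 31 preNeu cells. In tpMo Itgb7 led in 16 cells, Itgb2 in 14 and Itgb1 in 1. Ly6C-GMP was not even by cell: Itgb1 led in 30 of 45 cells and Itgb2 in 9. In CMP Itgb1 led in 21 cells, Itgb7 in 12 and Itgb2 in 6. Itgb2 led in 46 Ly6C+GMP and 11 proneu cells, and Itgb1 in 40 and 8.

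For the alpha chains, Itga4 made up 67.2% of the sum in CMP and 58.2% in Ly6C-GMP. Itgal and Itga4 were near each other in Ly6C+GMP, at 46.4% and 46.03%. Itgam made up 78.02% in preNeu, and Itgal 63.5% in tpMo. In proneu Itgam made up 41.7% and Itgal 34.7%, but 36.5% and 37.8% without the single cell of run B. The summed alpha level was 223 TPM in preNeu and 62.7 to 106 TPM elsewhere. By mean TPM, the leading chain therefore differed between CMP (Itga4), preNeu (Itgam) and tpMo (Itgal). By cell, Itgam was the highest of the 3 in 26 of 31 preNeu cells and Itgal in 15 of 31 tpMo cells. In CMP Itga4 led in 21 cells and Itgal in 17, but within run B Itgal led in 14 and Itga4 in 13. In proneu Itga4 was the highest of the 3 in 9 cells, Itgam in 7 and Itgal in 4.

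**Figure D3:**
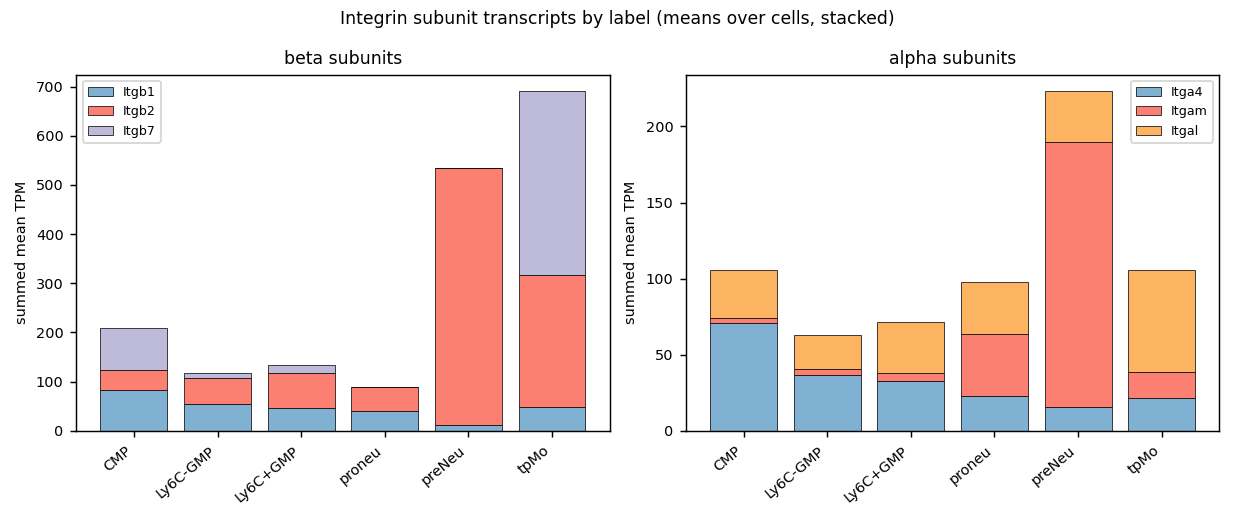
Mean TPM over cells of the beta chains (left) and alpha chains (right), stacked by label; bar height is the summed mean TPM, without an error bar. The preNeu bar is almost all Itgb2 and mostly Itgam, and the tpMo bar is mainly Itgb7 with Itgb2 on the left and Itgal on the right.

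Selplg, the main ligand of P-selectin on leukocytes, was highest in tpMo. Its lowest, median and highest levels there were 234, 896 and 2453 TPM. CMP had 0, 296.5 and 938 TPM, Ly6C-GMP 0, 247 and 1010.37 TPM, and Ly6C+GMP 0, 257 and 1978 TPM. Medians were lower in proneu (0, 96.9 and 354.5 TPM) and preNeu (0, 1.08 and 726.5 TPM). All 31 tpMo cells had at least 100 TPM, against 11 of 22 proneu and 8 of 31 preNeu cells, although the highest cells of every label lay within the range of tpMo.

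Mean Selplg was 991 ± 506 TPM in tpMo (31 of 31 cells detected), 381 ± 340 in Ly6C+GMP (95.2% of cells), 264 ± 205 in Ly6C-GMP (42 of 45) and 282 ± 284 in CMP (33 of 47). It was 94.1 ± 98.98 in proneu (18 of 22) and 84.7 ± 172 in preNeu (16 of 31). TpMo exceeded Ly6C+GMP by 2.02 log2 units (3.93 within run C) and preNeu by 7.05. Proneu differed from Ly6C+GMP by -3.08, and by -1.29 within run C, where the Ly6C+GMP mean was 132 ± 85.4 TPM against 408 TPM in run A. PreNeu differed from proneu by -1.95 on the log2 scale while their mean levels in TPM had a ratio of 0.90; 15 of 31 preNeu and 4 of 22 proneu cells were under 1 TPM. Ly6C-GMP was 1.51 above CMP, with values of 2.41 in run B and -0.28 in run H, so its direction differed between the runs.

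Cd44, a receptor for hyaluronan that also carries selectin-binding sugars, was the most evenly found of the 9. It was detected in 30 of 31 preNeu and tpMo cells each, 22 of 22 proneu, all but 1 Ly6C+GMP, 44 of 45 Ly6C-GMP and 36 of 47 CMP cells. Its median was 352 TPM in tpMo, 186.5 in preNeu, 148 in proneu, 147 in Ly6C+GMP, 134 in Ly6C-GMP and 125 TPM in CMP, and the ranges overlapped throughout. Mean Cd44 ran from 144 ± 103.7 TPM in Ly6C-GMP to 296 ± 212 in tpMo. The one difference past 1 log2 unit was Ly6C-GMP over CMP, at 1.28 (1.58 in run B, 0.69 in run H), while the ratio of the mean levels in TPM was 0.95, with 1 of 45 Ly6C-GMP and 11 of 47 CMP cells under 1 TPM. Under other scalings the small differences of Cd44 changed sign: preNeu minus proneu was -0.19 and became 0.70 after median-ratio scaling, and tpMo minus preNeu was 0.56 and became -0.22.

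Cd34 was high in CMP and Ly6C-GMP and low in proneu, tpMo and preNeu. Its lowest, median and highest levels were 0, 693.5 and 1973 TPM for CMP, 0.63, 378 and 1344 TPM for Ly6C-GMP, 0, 136 and 775 TPM for Ly6C+GMP and 0, 2.38 and 193 TPM for proneu. They were 0, 1.97 and 364.5 TPM in tpMo and 0, 0.67 and 4.77 TPM in preNeu. Of 31 preNeu cells none reached 5 TPM, whereas 34 of 47 CMP and 40 of 45 Ly6C-GMP cells were at 100 TPM or more. In mean TPM the order ran from CMP at 708 ± 597 through Ly6C-GMP at 446 ± 339 and Ly6C+GMP at 178 ± 190 to 25.2 ± 71.8 in tpMo, 22.2 ± 50.9 in proneu and 0.897 ± 1.15 in preNeu. Without the highest cell the tpMo mean was 13.9 and the proneu mean 14.1 TPM. On the log2 scale Ly6C-GMP came first, 0.37 above CMP (0.37 in run B and 0.36 in run H). Neighbours in the log2 order, in which proneu follows Ly6C+GMP, differed by less than the larger SD over cells of the pair, whereas tpMo differed from Ly6C+GMP by -3.33 against an SD of at most 3.26.

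The step at proneu rested on which Ly6C+GMP cells were used. Proneu minus Ly6C+GMP was -3.02 log2 units over all cells, but 0.29 within run C. Of the 95 Ly6C+GMP cells of run A, 57 had 100 TPM or more, and their median was 153 TPM. Of the 10 in run C, 1 had that much, and the median was 0.865 TPM (mean 38.4 ± 96.6, or 8.66 without the highest cell), although both sets carry the same CD34-positive gate. Proneu cells of run C had a median of 2.26 TPM, and the proneu cell of run B had 139.61 TPM. TpMo minus Ly6C+GMP likewise was -3.33 over all cells and 0.20 within run C, and Ly6C+GMP minus Ly6C-GMP was -2.58 over all cells, -2.21 with run A and -6.11 with run C. The part of the title run in these differences was not tested beyond these values. Within run C, preNeu minus proneu was -1.51. Most proneu cells were low but not empty, with 12 of 22 at 1 to 10 TPM.

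**Figure D4:**
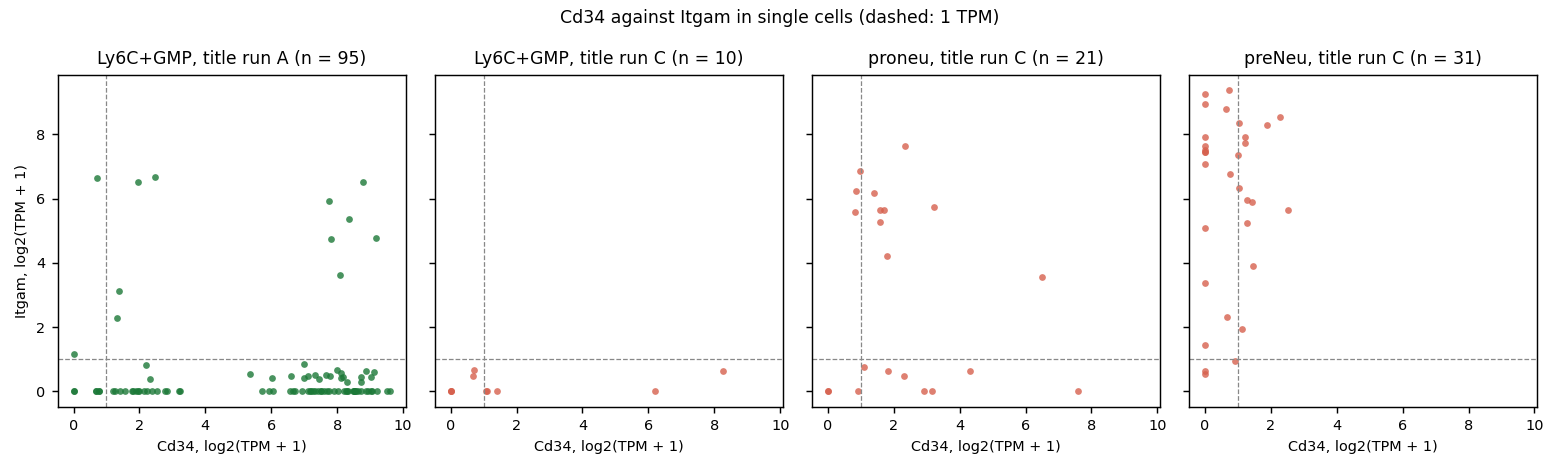
Cd34 (horizontal axis) against Itgam (vertical axis), both as log2(TPM + 1), in Ly6C+GMP cells of title runs A and C and in proneu and preNeu cells of run C; each dot is 1 cell and dashed lines mark 1 TPM. Run A cells lie mostly along the bottom at high Cd34, and preNeu cells lie along the left at high Itgam with Cd34 at 4.77 TPM or less.

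Cd34 and Itgam were detected together in 9 of 22 proneu cells (40.9%, interval 20.7% to 63.6%), 10 Ly6C+GMP cells (9.52%), 6 of 45 Ly6C-GMP cells, 3 of 47 CMP cells and 2 of 31 tpMo cells. The 12 of 31 preNeu cells with both all had Cd34 under 5 TPM. These shares moved with the detection limit: proneu had 13.6% at 5 TPM and 72.7% above 0 TPM, and Ly6C+GMP 5.71% and 34.3%. Over all cells the Pearson correlation of the log2 levels was -0.38, and after centring each cell on the mean of its label and title run it was -0.08 (280 cells). Cells of a label share its gate, and these values are descriptions across cells.

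The 6 comparisons were next read over all 9 genes. Each is set beside the share of all genes, among those averaging 1 TPM or more under one of its labels, that differed by at least 1 log2 unit. Several share a label, so they are not separate evidence. Related genes are from 5 lists: other integrin subunits (20), integrin activation and adaptor genes (31), selectins and genes for making their ligands (20), other surface adhesion proteins (27) and CD44 partners (12).

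Between Ly6C-GMP and CMP, 2 members were higher (Selplg and Cd44), 1 was lower (Itgb7) and 6 were within 1 log2 unit, against 16.9% of 12582 genes past that difference (15.6% higher, 1.29% lower). The median difference of the members was 0.26 and that of all genes 0.19 (0.37 and 0.25 in run B, 0.06 and 0.20 in run H). In run B, 2 were higher and 2 lower (Itga4 and Itgb7), against 22.9% of genes, and in run H only Itgb7 was past 1 log2 unit, among 8 with enough signal, against 25.9%. Of 27 adaptor genes measured, 5 were higher and 1 lower, led by Rasgrp2, an activator of the integrin switch Rap1, with a difference of 3.58 (3.68 and 3.39 in runs B and H). Itga2b, the alpha chain of the platelet fibrinogen receptor, was the 1 lower gene of 6 other subunits, with 9.95 ± 46.1 TPM in Ly6C-GMP against 108 ± 282 in CMP (-1.83).

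Between Ly6C+GMP and Ly6C-GMP, Itgb2 and Itgal were higher, Cd34 was lower and 6 members were within 1 log2 unit, against 11.2% of 12399 genes (9.87% higher, 1.35% lower). Members had a median difference of 0.54 and all genes of 0.12, but -0.21 and 0.07 with only the run C cells of Ly6C+GMP. With only the run C cells of Ly6C+GMP, Itgal (1.66) and Itga4 (1.204, against 0.08 over all cells) were higher and Cd34 and Selplg lower, against 23.3% of genes. Selplg changed direction there, at -1.32 against 0.58 over all cells. Itga1, the alpha chain of a collagen receptor, was found in 36 Ly6C+GMP cells and 3 Ly6C-GMP cells (1.36, and 0.51 with run C). Ilk, an integrin-linked pseudokinase, was higher by 2.10 (3.14 with run C). Of 16 selectin list genes 3 were higher and none lower, among them C1galt1c1 (2.79), a chaperone needed to extend O-linked sugars; with run C its difference was -0.74.

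From Ly6C+GMP to proneu, Itgam was higher, Itgal, Selplg and Cd34 were lower and 5 members were within 1 log2 unit, against 18.1% of 12026 genes (2.2% higher, 15.9% lower). Within run C, Itgam stayed higher and Itgal and Selplg lower, among 8 measured, against 26.7% of genes. Over all cells the median difference was -0.56 for the members and -0.23 for all genes. Within run C it was -0.10 and -0.27, so the order of the 2 medians differed. Of the genes that build selectin ligands, Fut7, the fucosyltransferase that completes them, was found in 2 of 22 proneu cells and in 44.8% of Ly6C+GMP cells (-1.98, and -1.29 within run C). Tpst2, which sulfates PSGL-1, differed by -2.35 over all cells and by 0.00 within run C. Vcam1, a ligand of VLA-4, was higher in proneu by 2.41 (2.50 within run C), with 13 of 22 proneu and 24 Ly6C+GMP cells detected. Of 27 adaptor genes 7 were lower and none higher, among them Rap1b and Rassf5, which act in integrin activation, at -1.57 and -1.29 (-1.93 and -2.36 within run C).

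From proneu to preNeu, Itgam and Itgb2 were higher, Itga4, Itgb1, Selplg and Cd34 were lower, Itgal and Cd44 were within 1 log2 unit, and Itgb7 was too low to count. The share over 10991 genes was 43.4%, with 3.58% higher and 39.8% lower, and the median difference was -1.01 over the members and -0.68 over all genes. The 4 lower members thus went the way of most genes that differed, and the 2 higher ones the less common way. Among adaptor genes 6 of 27 were higher and 10 lower: Fgr, a Src-family kinase that acts below Mac-1, was at 185 ± 288 TPM in preNeu and 0.237 ± 0.454 in proneu (3.81), and the talin-binding protein vinculin (Vcl) differed by 3.49. Of 14 selectin list genes 7 were lower and 1 was higher. Of 17 other surface proteins 11 were lower and 2 higher, with Icam2, a ligand of LFA-1, at -3.88 and the tetraspanin Cd9 at 4.61.

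From Ly6C+GMP to tpMo, Itgb2, Itgb7 and Selplg were higher, Cd34 was lower and 5 members were within 1 log2 unit, against 36.1% of 12057 genes (3.19% higher, 32.9% lower). Within run C the same 3 were higher, while Cd34 was within 1 log2 unit and Itga4 was lower at -1.72, against 42.8% of genes. Over all cells the members had a median difference of 0.27 and all genes of -0.50, and within run C 0.71 and -0.59. C1galt1c1 reached 672 ± 576 TPM in tpMo against 181 ± 265 in Ly6C+GMP (3.23, and 6.77 within run C), while Fut7 was detected in 6 of 31 tpMo cells (-1.65, and -0.99 within run C). The Src-family kinase Fgr was higher by 3.70. None of 19 other surface adhesion proteins was higher and 13 were lower, led by the tetraspanins Cd63 (-5.74) and Cd81 (-5.38); within run C 2 were higher and 14 lower.

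Between tpMo and preNeu, all cells of which lay in run C, Itgal, Itga4, Itgb1, Itgb7, Selplg and Cd34 were higher in tpMo, Itgam was lower, and Itgb2 and Cd44 were within 1 log2 unit. The share over 10826 genes was 30.8%, with 26.3% higher and 4.53% lower, and the median difference was 1.68 over the members and 0.36 over all genes. On the related lists, 14 of 28 adaptor genes were higher and 3 lower, and 7 of 15 selectin list genes were higher and none lower, with C1galt1c1 at 6.53. Of 19 other surface adhesion proteins 2 were higher and 6 lower, led by the tetraspanins Cd63 (-7.32), Cd9 (-7.20) and Cd81 (-5.45). Itga1 was found in 19 of 31 tpMo and 0 of 31 preNeu cells. Of 9 CD44 partners 2 were higher and 1 was lower. Moesin (Msn), which links CD44 and PSGL-1 to the actin cortex, was higher in tpMo by 2.31, and Ezr was the lower one, at -2.02.

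**Figure D5:**
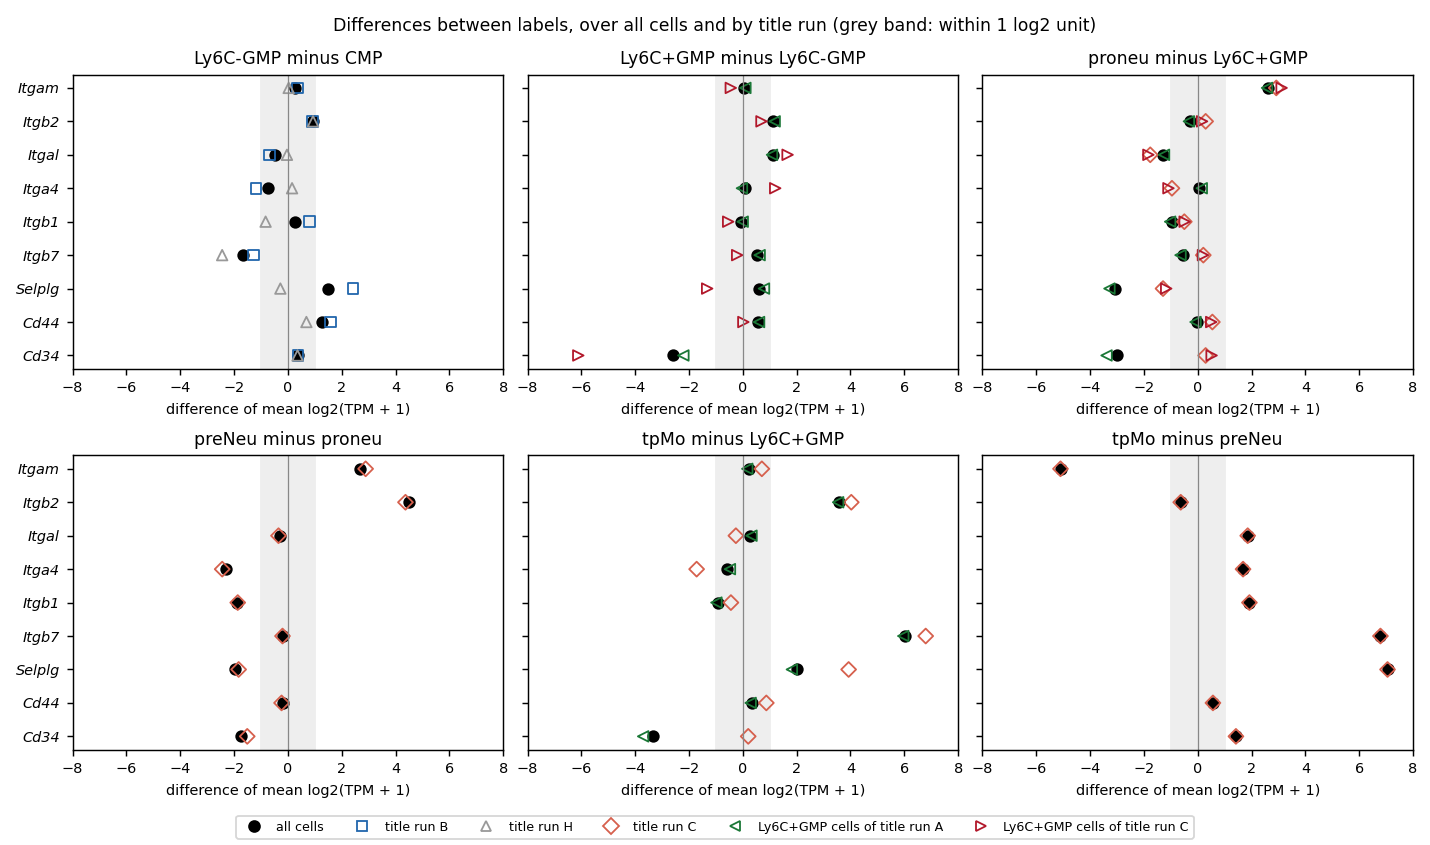
Difference of mean log2(TPM + 1) between labels (horizontal axis) for each of the 9 transcripts (rows) in the 6 comparisons, over all cells (filled circles) and by title run (open marks); the grey band is within 1 log2 unit. The marks for Cd34 spread from -6.11 to -2.21 for Ly6C+GMP minus Ly6C-GMP, while Itgb7 in tpMo and Itgam in proneu and preNeu keep their side in every run shown.

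Cells carried a median of 5 of the 9 transcripts in CMP, both GMP labels and proneu, 4 in preNeu and 6 in tpMo. Correlation across all cells mostly followed the labels. Itgam with Itgb2 had a Pearson r of 0.36, which was 0.19 after centring on label and title run, and Itgb7 with Selplg had 0.26 and 0.04. Selplg with Cd34 was alike both ways, at 0.27 and 0.25. Detected genes per cell moved with several members: r of their log2 number was -0.41 with Itgam, -0.29 with Itgb2, and 0.39 with both Selplg and Cd34, and the part of this was not tested.

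Of 6432 genes found in at least 20% of cells, those most like Itgam over all cells were the neutrophil genes Ltf (r 0.62, 0.12 after centring), S100a9 (0.62 and 0.18) and Cd177 (0.61 and 0.18). Itgb2 was most like Chil3 (0.54), Actb (0.51) and Cybb (0.50), and Itgb7 like Ctss (0.54, 0.21 after centring), Dpysl2 (0.53 and 0.29) and Crip1 (0.52 and 0.21). Selplg was most like Emb (0.56, 0.32 after centring), F13a1 (0.56 and 0.33) and Ms4a6c (0.56 and 0.31), and Cd34 like Gas5 (0.54 and 0.12), Gpr171 (0.51 and 0.32) and Serinc3 (0.51 and 0.28). Values for the others were lower: Cd44 with Ndufb7 0.44, Hp 0.38 and Ly6c2 0.37; Itga4 with Cerkl 0.36, Slc38a6 0.26 and Pdcd4 0.24; Itgb1 with Clpp 0.34, Nrros 0.33 and Prdx2 0.32; and Itgal with Tmem109 0.27, Sepp1 0.26 and Slc25a4 0.25. Cells share labels and title runs, so these are descriptions across cells and carry no test.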

How the data were processed

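Sorted single cells of mouse marrow were made into SMART-seq2 libraries with a reduced Nextera XT reaction, per the labels' protocols. The authors deposited 1 table of TPM values for all cells. RSEM 1.2.19 and the build GRCm38 were used, per the submitters' processing notes. The aligner, annotation and any filters were not given in the sources used here. In this table TPM is relative to the total of each cell (998703 to 1000000 here) and has no molecular identifiers, so read depth is unknown and a very abundant transcript lowers the others. The members and gene lists were chosen with earlier results of these data known.

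The cell type label set the groups, and every cell was used. Values were computed with Python 3.11.15, numpy 2.4.6, pandas 2.3.3 and scipy 1.17.1, and the code was tested on simulated data. The pseudocount was 1 TPM, genes averaging 1 TPM or more under one of the labels were compared, and each label counted as 1 sample, so no p-value was computed. A count of 0 cells was given the limit of 3 cells of the total. Named genes were the 9 members; of each related list, the 3 with the largest difference among genes with at least 5 TPM in the higher label, from which some with a known role were described and others are not reported here; and the 3 genes most correlated with each member, leaving out predicted, ribosomal and mitochondrially encoded genes. Alternatives were other pseudocounts and detection limits, no filter, the ratio of mean TPM, 2 other scalings, single title runs and leaving out the highest cell of each label. Cells with at least 3000 genes detected were an alternative chosen after seeing the data.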

Additional observations from a re-analysis of the deposited data

How the results depend on the processing

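With a pseudocount of 10 TPM, members past 1 log2 unit numbered 0 for Ly6C-GMP against CMP (3 at 1 TPM), 1 for Ly6C+GMP against Ly6C-GMP (3), 3 for preNeu against proneu (6) and 3 for tpMo against preNeu (7). Title run H alone gave 1 member for the first of these comparisons, against 25.9% of genes. By the log2 ratio of mean TPM there was 1 for each of the first 2 comparisons, against 35.7% and 26.1% of genes. By that ratio, Ly6C-GMP against CMP was -0.098 for Selplg and -0.068 for Cd44, and proneu against Ly6C+GMP was 0.039 for Itgal, each opposite to the mean log2 value; Selplg was also opposite in run H (-0.28). Cd34 in proneu against Ly6C+GMP was 0.29 in run C and 0.52 with all proneu cells against the Ly6C+GMP cells of run C, and 0.20 in tpMo within run C. The cause was not tested. Over all genes, the share of differences that were higher was, in the order of the report and with the ratio of means second, 92.4% and 36.9%, 87.9% and 46.3%, 12.1% and 40.7%, 8.26% and 27.96%, 8.84% and 41.9%, and 85.3% and 71.5%. Median-ratio scaling over 547 genes moved the median of all genes for preNeu against proneu from -0.68 to -0.54, and that for tpMo against preNeu from 0.36 to 0.26. Dropping the filter changes which genes are compared but not the differences, so it is no check of the 54 differences of members. Of these, leaving out the highest cell of each label changed 2 by over 1.5 times or past the threshold. A pseudocount of 0.1 TPM changed 24 and one of 10 TPM 26. Under these settings no difference past 1 log2 unit changed direction. Detection at 5 TPM moved 9 of 54 shares of cells out of their exact intervals, among them those with Cd34 in proneu (31.8%), tpMo (29.03%) and preNeu (0%) and with Selplg in preNeu (29.03%). Of 30 shares of cells with both genes of a pair, 4 did so at 5 TPM and 14 above 0 TPM, where Itgam with Itgb2 was at 24.8% and Itgal with Itgb2 at 41.9% in Ly6C+GMP. Among cells with at least 3000 genes detected, Selplg and Cd44 differed between Ly6C-GMP and CMP by 0.34 and 0.69; 1 of 31 preNeu cells had as many, so its comparisons could not be made. No paired analysis was possible because each sample is 1 cell and the labels number no replicates. Unknown read depth limits each value at 0 or near 1 TPM.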
